A study of Homo sapiens with 9 samples.

Results

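The BCL2 family apoptosis regulators are described here by 10 genes out of the 58735 in the deposited count table, each found once by its gene name. They comprise the anti-apoptotic genes BCL2, BCL2L1 and MCL1, the multidomain effector BAK1, and the BH3-only genes BID, BAD, BIK, BMF, BCL2L11 and PMAIP1. BAX and BBC3 were left out by the rule that chose the members and are treated with the rest of the pathway. All 10 members passed the low-count filter and are among the 17023 genes tested. RNA sequencing was carried out on OVCAR3, an established human ovarian cancer cell line that the labels mark as wild type in the control group and as GPX3 knock-down in the others. A scramble short hairpin RNA (an expressed RNA whose processed strand guides the silencing of a matching transcript) served as control, and independent hairpins numbered 76 and 78 by the authors, called sh76 and sh78 below, were directed against GPX3, which encodes a secreted glutathione peroxidase. Each group held 3 samples, collected after 72 h in culture in RPMI medium with serum and insulin. All of the groups are 1 cell line, and the labels do not say whether replicates were separate transductions, so p-values measure the spread between these samples.

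Proteins of the BCL2 family decide whether the outer mitochondrial membrane stays intact. The anti-apoptotic members bind and hold back the effectors BAX and BAK, and the BH3-only proteins either block these guardians or activate the effectors directly. Once BAX or BAK opens the membrane, cytochrome c leaves the mitochondrion and caspases are activated. Ovarian carcinoma cells are known to lean on MCL1 and on BCL-XL, the main product of BCL2L1. Because most of these proteins are also controlled by turnover, phosphorylation, cleavage and splicing, the gene counts speak only of transcript levels.

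Libraries held 14652965 to 21327562 counts. CPM, the usual depth-scaled count unit, were computed after TMM scaling, which corrects for differences in library makeup, and FPKM are the authors' values scaled for gene length and library size. The target of the hairpins, GPX3, measured 173, 109 and 117 CPM in scramble replicates 1 to 3, against 56.8, 55.2 and 55.5 CPM under sh76 and 35.3, 28.4 and 28.3 CPM under sh78, so the 3 groups were fully apart. The 9 ovarian epithelial carcinoma markers were all detected and summed to 2032 to 2307 FPKM with scramble, 1778 to 2069 with sh76 and 1674 to 1830 with sh78. The largest parts, as means in this order, were KRT8 (804, 692 and 560 FPKM), KRT18 (673, 528 and 487) and KRT7 (313, 367 and 348). PAX8 averaged 121, 99.6 and 129 FPKM and MUC16 35.3, 39.8 and 36.7 FPKM, so not every marker fell with the sum. The 6 fibroblast markers summed to 2.70 to 3.93, 3.05 to 5.58 and 3.47 to 4.69 FPKM in the same order, with DCN and LUM at 0 in every scramble library. COL1A1 made up most of this, with means of 3.27, 3.83 and 3.92 FPKM, and COL1A2 averaged 0.114, 0.276 and 0.204 FPKM. With the replicate number fitted as a block, COL1A1 was called higher with sh76 and sh78 (blocked edgeR adjusted p 0.0137 and 0.00496). Of all genes, 9.63% and 9.79% were called higher in that fit. Without the block it was not called. The 6 leukocyte markers summed to 0.806 to 1.31, 1.42 to 1.55 and 1.57 to 1.82 FPKM, with CD3E and CD68 at 0 in every scramble and sh76 library. The 4 endothelial markers summed to 2.17 to 2.48, 2.43 to 3.18 and 3.15 to 4.29 FPKM. Most of that sum was KDR, with means of 1.42, 2.07 and 2.85 FPKM, while PECAM1 had 0 to 10 counts per library. Against scramble, PAX8 was called lower with sh76 (edgeR adjusted p 0.0196) and KRT8, KRT18 and EPCAM with sh78 (0.00259, 0.0105 and 0.00387). Of the 9 carcinoma markers, these are 1 and 3, and 0 were higher, where 2.16% and 2.56% of all genes were called lower. KDR was called higher with both hairpins (edgeR adjusted p 0.0396 and 0.00087), where 1.43% and 1.85% of all genes were. The part of these marker genes in the results was not tested. In bulk RNA, a change in transcript per cell and a change in the share of cells that hold it cannot be told apart.

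Levels of the members were compared per gene length first. MCL1, which encodes a short-lived guardian protein, was the highest in control cells with 96.1 ± 4.77 FPKM (SD, n = 3), followed by BCL2L1 with 49.7 ± 1.68 FPKM. BID, cleaved by caspases to link death receptors to mitochondria, stood at 20.9 ± 0.73 FPKM and BAD, a BH3-only protein regulated by phosphorylation, at 20.5 ± 2.16 FPKM. BAK1 had 17.5 ± 0.857 FPKM. BCL2L11, which encodes the BH3-only activator BIM, had 13.2 ± 0.463 FPKM. PMAIP1, which encodes NOXA, a partner of MCL1, had 6.89 ± 0.609 FPKM and BMF 6.18 ± 0.97 FPKM. BIK, with 1.3 ± 0.35 FPKM, and BCL2, with 0.315 ± 0.0613 FPKM, were the lowest. The scramble ranges of BID and BAD, of BAD and BAK1, and of PMAIP1 and BMF overlapped, and the other neighbours in this order did not. Exons of BCL2L1, BAD, BCL2L11, BMF and BAK1 share 43%, 23.7%, 10.9%, 8.46% and 4.11% of their bases with genes on the opposite strand. The libraries carry no strand, so reads from the shared stretches cannot be assigned, and their part in these levels was not tested. BCL2 carried 45 to 103 counts per library and BIK 15 to 25, the fewest among the members.

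**Figure D1:**
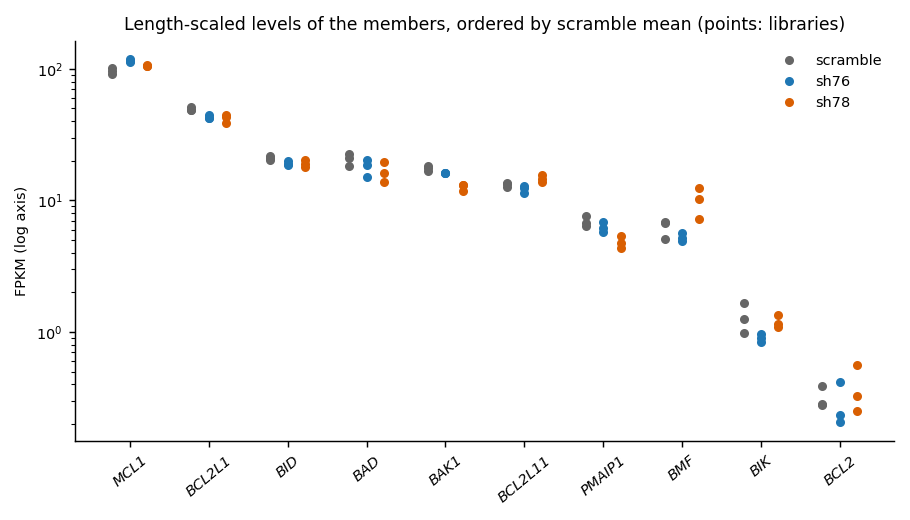
Deposited FPKM of the 10 members on a log axis, 1 point per library and 1 colour per group, ordered by the scramble mean. MCL1 and BCL2L1 stand above the rest in all groups, BIK and BCL2 below, and BMF with sh78 moves above its scramble points.

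With sh76, 1 of 10 members was called (edgeR adjusted p under 0.05 over all 17023 genes tested), against 3.58% of all genes, and that member, MCL1, was higher (1.43% of all genes were called higher and 2.16% lower). With sh78, 2 of 10 were called, against 4.41% of all genes, and both, BAK1 and PMAIP1, were lower (2.56% of all genes, with 1.85% called higher). Between the hairpins, 2 of 10 were called against 3.7% of all genes, BMF higher with sh78 (1.97% of all genes) and BAK1 lower (1.72%). In both hairpin comparisons with the same sign, 0 members were called without a replicate block, against 1.32% of all genes. At an unadjusted p under 0.05, 2 members passed with sh76, 6 with sh78 and 5 between the hairpins, where 17.4%, 17.5% and 16.3% of all genes passed. The median log2 fold change of the 10 members was −0.13 with sh76 and −0.13 with sh78, against 0.01 and 0.01 over all genes tested. With sh76, 9 of the 10 had a negative value and with sh78, 6, against 8265 and 8293 of all 17023 genes tested. The hairpin comparisons share the scramble libraries.

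Replicates with the same number deviated together in all groups, so the number was also fitted as a block. With it, 2 members were called with sh76 (20.4% of all genes), MCL1 higher (9.63% of all genes) and BCL2L1 lower (10.7%). With sh78, 8 were called (19.9%), of which MCL1, BCL2L11 and BMF were higher (9.79%) and BCL2L1, BAK1, BID, BAD and PMAIP1 lower (10.1%). Between the hairpins, 5 were called (18.3%), with BCL2L11 and BMF higher in sh78 (9.69%) and MCL1, BAK1 and PMAIP1 lower (8.62%). A blocked value is given beside a member where it changes the call. Without any model, the CPM ranges of sh76 and scramble were apart in 5 of 10 members (22.5% of all genes), 1 higher (10.8%) and 4 lower (11.7%). Those of sh78 and scramble were apart in 7 (21.5%), 3 higher (10.2%) and 4 lower (11.2%). Those of the hairpins were apart in 6 (21.8%), 3 in each direction (10.9% of all genes in each).

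**Figure D2:**
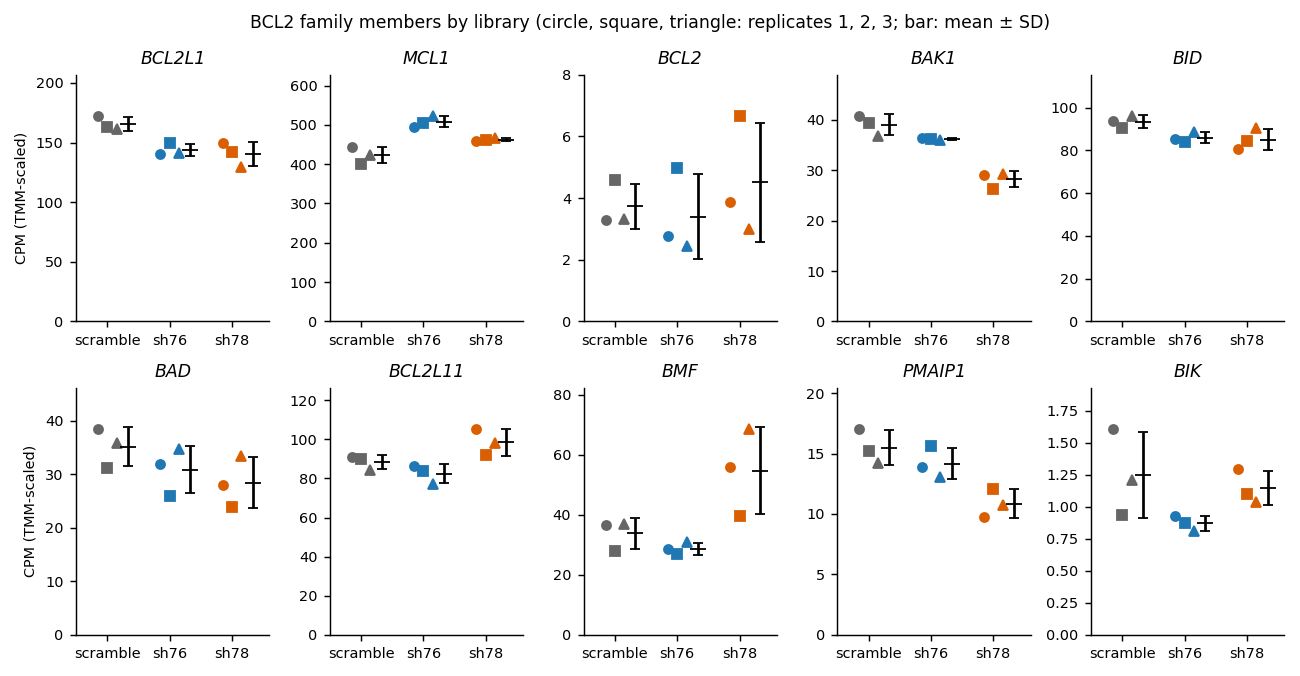
CPM of each member in each of the 9 libraries, with an axis from 0 in each panel; marker shapes are replicate numbers, and the bars show the mean ± SD of a group. MCL1 with sh76, and BAK1, PMAIP1 and BMF with sh78, are among those apart from all 3 scramble points. These are 5 of 10 members with sh76 (22.5% of all genes) and 7 with sh78 (21.5%).

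Among the anti-apoptotic genes, MCL1 (ENSG00000143384, chromosome 1, 150574551 to 150579738, minus strand, GRCh38) rose with sh76. It had 443, 401 and 423 CPM in scramble replicates 1 to 3, 496, 504 and 523 CPM with sh76, and 460, 461 and 466 CPM with sh78. Every hairpin library lay above every scramble library, and the sh76 libraries lay above those of sh78. Its rise with sh76 was 20.1%, or 0.26 on the log2 scale with an SE of 0.06 (edgeR adjusted p 0.0177). This call was lost without scramble replicate 2 (edgeR adjusted p 0.0918), scramble replicate 3 (0.053), sh76 replicate 2 (0.0742) or sh76 replicate 3 (0.0723). With sh78 the log2 fold change was 0.13 (edgeR adjusted p 0.239), and the replicate block called it (adjusted p 0.0193). Between the hairpins the value was −0.13 (edgeR adjusted p 0.244; with the block, 0.0176). Within the same-numbered pairs, the log2 ratio of sh76 to scramble was 0.16, 0.33 and 0.31.

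BCL2L1 (ENSG00000171552, chromosome 20, 31664452 to 31723989, minus strand) stood in the other direction. It had 172, 163 and 161 CPM with scramble, 141, 149 and 141 CPM with sh76, and 150, 142 and 130 CPM with sh78. Each of the 6 hairpin values was under the lowest scramble value, while the hairpins overlapped each other. The log2 fold changes of −0.20 with sh76 (SE 0.07, edgeR adjusted p 0.111) and −0.24 with sh78 (SE 0.07, edgeR adjusted p 0.0586) did not pass the threshold. Both were called with the block (edgeR adjusted p 0.000962 and 0.000127). For sh78 the value also passed in DESeq2 (adjusted p 0.0392), without the low-count filter (edgeR adjusted p 0.0436) and without sh78 replicate 1 (edgeR adjusted p 0.0449). Exons of BCL2L1 share 43% of their bases with ABALON, an antisense gene that had 20 to 55 counts per library. The libraries carry no strand, so reads from the shared stretch cannot be assigned, and the 9 annotated transcripts of BCL2L1, which encode both long and short forms with opposite effects on survival, are summed in its count.

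BCL2 itself, the founding member, was the lowest of the 10 by FPKM, though not by CPM. It had 3.28, 4.58 and 3.33 CPM with scramble, 2.78, 4.99 and 2.43 CPM with sh76, and 3.88, 6.67 and 2.99 CPM with sh78. Replicate 2 was the highest of its group throughout, and the groups overlapped. The 95% interval of its log2 fold change ran from −0.83 to 0.58 with sh76 and from −0.44 to 0.97 with sh78, which leaves room for a rise or a fall of that size.

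BAK1 (ENSG00000030110, chromosome 6, 33572547 to 33580293, minus strand) encodes BAK, an effector that resides in the outer mitochondrial membrane, and fell with sh78. It had 40.8, 39.4 and 36.7 CPM with scramble, 36.3, 36.1 and 35.9 CPM with sh76, and 29.1, 26.3 and 29.2 CPM with sh78. The sh78 libraries lay below all of the others, and the sh76 libraries lay just below scramble. With sh78 it differed from scramble by −27.5%, or −0.46 on the log2 scale with an SE of 0.08 (edgeR adjusted p 0.00523), and this call held in all 17 alternatives, with values from −0.51 to −0.42. With sh76 it was −0.11 (95% interval −0.28 to 0.07, edgeR adjusted p 0.538). The direct test of sh78 against sh76 gave −0.35 (SE 0.08, edgeR adjusted p 0.0297). This call was lost when any 1 of the 6 hairpin libraries was left out, while the log2 difference stayed between −0.38 and −0.31: the adjusted p was 0.0845, 0.1 and 0.0818 without sh76 replicates 1 to 3 and 0.0668, 0.109 and 0.0671 without sh78 replicates 1 to 3. The processed pseudogenes BAK1P1 and BAK1P2 had at most 12 and 6 counts in a library, against 383 to 753 for BAK1, and reads shared with them were not tested.

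**Figure D3:**
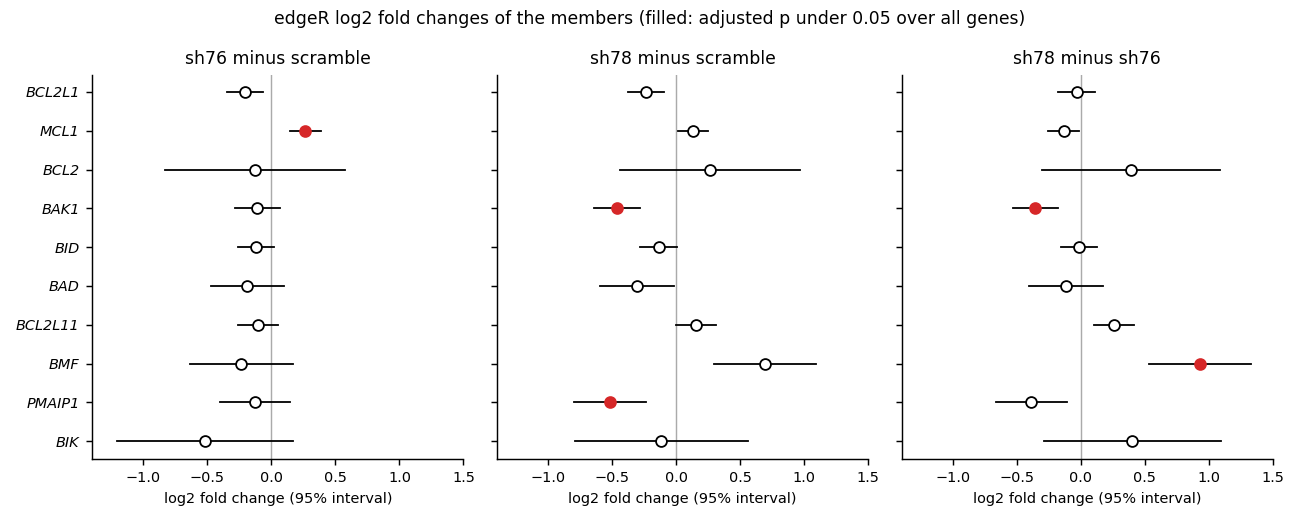
The log2 fold change of each member in the 3 comparisons with its 95% interval from edgeR; filled points have an adjusted p under 0.05 over all genes. MCL1 is filled for sh76, BAK1 and PMAIP1 for sh78, and BAK1 and BMF for sh78 against sh76.

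Among the BH3-only genes, BMF (ENSG00000104081, chromosome 15, 40087890 to 40108892, minus strand) differed most. It encodes a protein that is held on the cytoskeleton through dynein light chain 2 and released by loss of attachment. Scramble libraries had 36.7, 27.8 and 37 CPM, sh76 libraries 28.6, 26.8 and 30.9 CPM, and sh78 libraries 56, 39.6 and 68.7 CPM. All 3 sh78 libraries lay above the other 6, replicate 2 least so, and replicate 2 was also the lowest of the other groups. BMF was 90.5% higher with sh78 than with sh76, which is 0.93 on the log2 scale with an SE of 0.18 (edgeR adjusted p 0.0198). Without sh76 replicate 1, 2 or 3 or sh78 replicate 1 this call was lost (edgeR adjusted p 0.065, 0.0922, 0.0548 and 0.0611). Against scramble the log2 fold change was 0.70 (SE 0.18), which just missed the threshold (edgeR adjusted p 0.059). It was called with the block (edgeR adjusted p 4.13e-07), in DESeq2 (0.00193), without the low-count filter (edgeR adjusted p 6.19e-09) and without sh78 replicate 2 (log2 fold change 0.88, edgeR adjusted p 0.00523). It was not called without any of the other 8 libraries, where the log2 fold change ran from 0.50 without sh78 replicate 3 (edgeR adjusted p 0.133) to 0.76 without scramble replicate 3 (0.114). Within the same-numbered pairs the log2 ratio of sh78 to scramble was 0.61, 0.51 and 0.89. With sh76 the log2 fold change was −0.23 (edgeR adjusted p 0.567).

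PMAIP1 (ENSG00000141682, chromosome 18, 59899948 to 59904306, plus strand) fell with sh78. NOXA, its product, binds MCL1 and promotes its degradation, and the gene is a known target of ATF4. It had 17, 15.2 and 14.2 CPM with scramble, 13.9, 15.6 and 13 CPM with sh76, and 9.75, 12.1 and 10.7 CPM with sh78. The sh78 libraries lay below the other 6, and sh76 overlapped scramble. It differed by −30% between sh78 and scramble, or −0.51 on the log2 scale with an SE of 0.13 (edgeR adjusted p 0.0389). Leaving out single libraries ended this call in 6 of 9 cases. The adjusted p was 0.114, 0.0971 and 0.0578 without scramble replicates 1 to 3, 0.0524 without sh76 replicate 2, and 0.136 and 0.114 without sh78 replicates 1 and 3. With sh76 it was −0.13 (95% interval −0.40 to 0.14). Against sh76, sh78 gave −0.39, which only the block called (edgeR adjusted p 0.13 without it and 0.00909 with it).

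BCL2L11 (ENSG00000153094, chromosome 2, 111119378 to 111168447, plus strand) encodes several splice forms of BIM, summed here in 1 count, and was not called in any comparison by the edgeR fit without the block. It had 90.9, 90.1 and 84.5 CPM with scramble, 86.6, 83.6 and 77 CPM with sh76, and 105, 91.8 and 98.1 CPM with sh78. The sh78 libraries lay above all of the others. The log2 difference between the hairpins was 0.26 (SE 0.07, edgeR adjusted p 0.0699). It was called with the block (edgeR adjusted p 0.000193), in DESeq2 (0.0422) and without the low-count filter (edgeR adjusted p 0.0391). Against scramble, sh78 gave 0.15 (edgeR adjusted p 0.292; with the block, 0.0269). Exons of BCL2L11 share 10.9% of their bases with MIR4435-2HG, a non-coding gene on the opposite strand with 275 to 602 counts per library.

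BID, BAD and BIK were not called in any of the 3 comparisons without the block. BID had 90.5 to 96.3 CPM with scramble, 84 to 88.8 with sh76 and 80.5 to 90.4 with sh78, so that both hairpin groups lay below scramble by −0.12 and −0.14 on the log2 scale (edgeR adjusted p 0.373 and 0.307). BAD had 31.2 to 38.4, 26 to 34.6 and 23.9 to 33.5 CPM, with groups that overlapped and replicate 2 lowest in each. The block called both genes with sh78 (edgeR adjusted p 0.0444 for BID and 0.00187 for BAD, log2 fold change −0.31). BAD exons share 23.7% of their bases with GPR137 on the opposite strand, which had 281 to 402 counts per library. BIK, a BH3-only protein of the endoplasmic reticulum, had 0.811 to 1.61 CPM in all libraries, and the 95% interval of its log2 fold change ran from −1.20 to 0.17 with sh76 and from −0.79 to 0.56 with sh78.

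Promoter windows from RefSeq (GRCh38.p14, 300 bases around RefSeq's start of a gene, which can differ from the start in the count table) were read for 8 of the 10 members, to see which hold a short motif of factors known to act on BH3-only genes. No window was available for MCL1 or BIK, so these genes were not searched. On either strand, 5 motifs were searched: TGATGNAA (ATF4 with C/EBP), TGACGT (the core of the cyclic AMP response element), TGANTCA (AP-1), TGTTTAC (FOXO) and CACGTG (E-box). The response element core was found in PMAIP1 and BAD, where 9.64% of 27305 genes hold it in at least 1 of their windows, the FOXO motif in BCL2L11 (4.19% of genes) and the E-box in BID (8.77%). BID has 5 windows, BAD 2, and BCL2L11 and PMAIP1 1 each. Neither TGATGNAA (4.46%) nor TGANTCA (9.37%) was found in these 8 genes, and none of the 5 in BMF, BAK1, BCL2 or BCL2L1. Of the BH3-only genes, PMAIP1 was called lower with sh78 without the block, and BCL2L11 and BMF had the highest log2 fold changes with sh78 against scramble. The matches in PMAIP1 and BCL2L11 are shown for that reason, with those in BAD and BID as the only others found. Each is given as 30 bases on the gene's strand, with the motif in capitals, and a match is a description of letters only.
PMAIP1, chr18:59899929-59899958, plus strand: ctagtttccctACGTCAccagggaagttct
BAD, chr11:64284740-64284769, minus strand: acctacccgagTGACGTtccgagaggtgat
BCL2L11, chr2:111120680-111120709, plus strand: gagttactccgGTAAACAcgccagggacgg
BID, chr22:17774071-17774100, minus strand: tgtgtcctctcCACGTGgcctggggattca

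**Figure D4:**
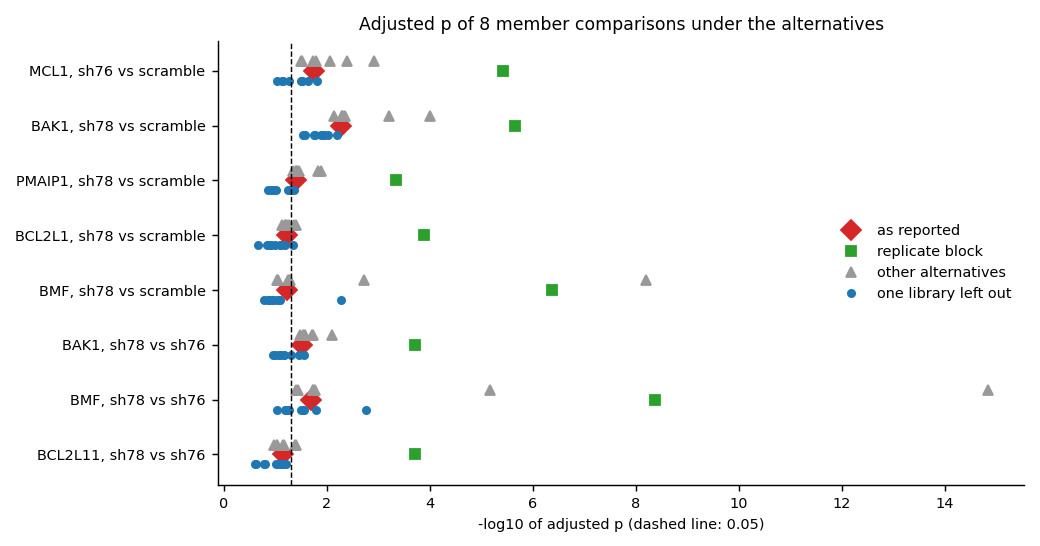
Adjusted p, as −log10, for 8 comparisons of single members under each way of processing; the dashed line is 0.05. BAK1 with sh78 stays right of the line throughout, the points that leave out 1 library straddle it for MCL1, PMAIP1, BCL2L1 and BMF and for BAK1 between the hairpins, and the block moves all 8 to the right of it.

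The balance of transcripts among the members was summarised by length-scaled sums, a choice made after the single values were seen. Stretches shared with genes on the opposite strand enter these sums as well, and their part was not tested. The anti-apoptotic genes made up 62.6% to 63.1% of the FPKM of all 10 members in the scramble libraries, 66.2% to 68% with sh76 and 62.8% to 67.3% with sh78. The sh76 libraries were thus above scramble, and sh78 overlapped it. MCL1 supplied 64.9% to 66.4% of the anti-apoptotic sum with scramble, 71.7% to 73.7% with sh76 and 69.8% to 73.1% with sh78. BAK1 accounted for 7.16% to 7.95% of the 10 members with scramble, 6.69% to 6.97% with sh76 and 5.38% to 5.72% with sh78, and these ranges did not overlap. BMF provided 7.85% to 9.75% of the BH3-only sum with scramble, 8.28% to 8.83% with sh76 and 12% to 17.2% with sh78.

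The genes whose pattern over the 9 libraries was most like that of BAK1 and of MCL1, the members with the lowest edgeR p in either hairpin comparison, were looked up among 12798 genes by Pearson's r of log2 CPM. For BAK1 these were KLK8 (r = 0.98), AC007996.1 (0.97) and ARL6IP1 (0.96). KLK8, a kallikrein-related peptidase, averaged 20.1 CPM in scramble, 17 CPM in sh76 and 10.7 CPM in sh78 libraries. For MCL1 they were ABI1 (r = 0.97), SPINT1 (0.97) and NUDT12 (0.96). SPINT1, an inhibitor of serine proteases, averaged 219, 287 and 239 CPM in these groups. The libraries share groups, replicate numbers and depth, so these are descriptions.

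Other genes of the pathway were taken from 6 lists. Their counts are to be read against the shares of all genes called higher and lower, 1.43% and 2.16% with sh76 and 1.85% and 2.56% with sh78, and with the block 9.63% and 10.7% with sh76 and 9.79% and 10.1% with sh78. Of the other BCL2 family genes, 9 of 12 were tested. With sh76, 0 of these were called, and with sh78, 2 were lower and 0 higher. With the block, 2 were lower with sh76, BNIP3 and HRK (blocked edgeR adjusted p 0.000287 and 0.0402), and 4 with sh78, BNIP3, BNIP3L, BOK and BCL2L13 (0.0127 for BCL2L13). BNIP3L, which encodes a mitochondrial receptor for mitophagy also known as NIX, averaged 99.7 ± 3.01 CPM in scramble, 100 ± 7.42 CPM in sh76 and 70.6 ± 3.49 CPM in sh78 libraries (SD, n = 3). The log2 difference was −0.50 between sh78 and scramble (edgeR adjusted p 0.00126) and −0.51 between the hairpins (edgeR adjusted p 0.00131). BNIP3, its relative, fell by 0.56 on the log2 scale with sh78 (edgeR adjusted p 0.0464) from 46 ± 6.74 to 31.2 ± 2.52 CPM. BAX had 26 ± 3.81, 23.9 ± 0.886 and 23 ± 2.03 CPM and BBC3, which encodes PUMA, 8.84 ± 1.83, 7.23 ± 1.5 and 6.92 ± 1.06 CPM, and neither was called with either hairpin or with the block. BOK, another multidomain member, stood at −0.43 on the log2 scale for sh78, which only the block called (edgeR adjusted p 0.0713 without it and 0.000202 with it). BCL2A1, BCL2L10 and BCL2L14 were below the count filter, with at most 1, 2 and 12 counts in a library.

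Among 12 genes of the apoptosome, caspases and mitochondrial factors, VDAC2, an outer membrane channel that binds BAK, was lower with sh78 (223 ± 16.8 to 183 ± 4.43 CPM, log2 fold change −0.29, edgeR adjusted p 0.0193), and 0 were called with sh76. None of 5 tested caspase inhibitors of the IAP family and none of 12 tested death receptor genes was called by edgeR with either hairpin. At the level of transcripts, CASP9, APAF1 and XIAP had log2 fold changes between −0.21 and 0.07 in both comparisons. With the block, 2 and 3 genes of the first of these lists were lower with sh76 and sh78, 0 of the IAP list were called, and of the death receptor list 2 were higher with sh76 and 1 was lower with sh78.

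Transcription factors known to act on BH3-only genes were called lower for 2 of 12 with each hairpin, and 0 were higher. These were ATF4, the central factor of the integrated stress response (320 ± 5.64, 265 ± 12.7 and 247 ± 5.82 CPM; log2 fold changes −0.27 and −0.37, edgeR adjusted p 0.0161 and 0.00189), and DDIT3, which encodes its partner CHOP. DDIT3 had 14.3 ± 1.3, 9.6 ± 0.886 and 7.23 ± 1.29 CPM, which is −0.57 and −0.98 on the log2 scale against scramble (edgeR adjusted p 0.0477 and 0.00211). HIF1A was lower with sh78 than with sh76 (log2 difference −0.26, edgeR adjusted p 0.0221). FOXO1 and FOXO3 were not called with either hairpin, nor with the block. E2F1 and JUN were called only with the block, JUN with sh78 (log2 fold change 0.13, blocked edgeR adjusted p 0.0346) and E2F1 with sh76 (0.14, 0.0232). With the block, 2 genes of the list were higher and 2 lower with sh76, and 2 higher and 4 lower with sh78. Among 10 ubiquitin enzymes and binding partners of MCL1 and BIM, DYNLL2, the dynein light chain that holds BMF, rose with both hairpins. It had 216 ± 5.56, 264 ± 9.26 and 270 ± 22.6 CPM, a rise of 0.29 and 0.32 on the log2 scale (edgeR adjusted p 0.0269 and 0.0128). USP9X, FBXW7 and MARCH5, which act on the stability of MCL1 or its regulators, were not called, nor with the block. DYNLL1, the related light chain that binds BIM, had 133 ± 4.43, 115 ± 7.24 and 111 ± 20.2 CPM, with log2 values of −0.21 and −0.27 that only the block called (blocked edgeR adjusted p 0.038 and 0.00985). With the block, 3 genes of this list were higher and 1 lower with sh76, and 1 higher and 1 lower with sh78. HUWE1, a ubiquitin ligase of MCL1, was called with the block for sh76 only (log2 fold change 0.13, blocked edgeR adjusted p 0.0238).

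**Figure D5:**
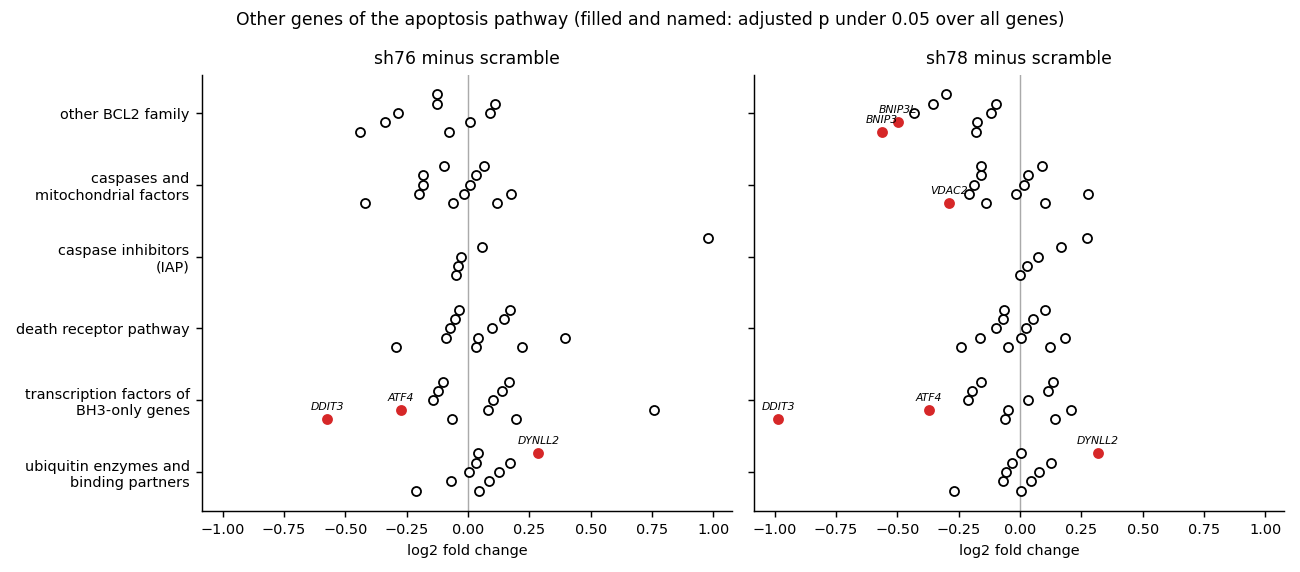
The log2 fold change of each tested gene of the 6 pathway lists with sh76 (left) and sh78 (right) against scramble, on a common axis; filled and named points have an edgeR adjusted p under 0.05 over all genes. ATF4, DDIT3 and DYNLL2 are filled on both sides, and BNIP3, BNIP3L and VDAC2 on the right only.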

How the data were processed

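The authors deposited whole-number counts per gene and FPKM values for 58735 genes in 9 libraries. Per the submitters' processing notes, HISAT2 2.0.5, featureCounts 1.5.0-p3 and hg38 were used, with no settings given. Per the labels' protocols, RNA was poly-A selected and libraries were non-directional. The deposited FPKM values are scaled by the authors for gene length and library size, and were used for levels between genes. Gene starts and ends equalled those of GENCODE 29 for 99.98% of genes.

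Counts were tested with edgeR 4.0.16 (R 4.3.3): filterByExpr (minimum count 10, total 15), TMM, robust quasi-likelihood fits with 1 coefficient per group over all 9 samples, Benjamini-Hochberg adjustment over 17023 genes. The test was also run on simulated data. Same-numbered replicates deviated together (r 0.14 to 0.39 in 9 pairs, −0.31 to 0.06 in 18 others), so a replicate block was an alternative; DESeq2 1.42.0, limma 3.58.1 on log2(FPKM + 1) and log2(FPKM + 0.1), scaling, filters and left-out libraries were the others. Replicates of a group differed by more than counting noise (chi-square per degree of freedom 4.9 to 11.1). Members and lists were chosen with earlier results of these data known. Named were all members, GPX3, up to 4 called genes a list, and the 3 genes most like the 2 members with the lowest p. Other genes named without a call were chosen after their values were seen.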

Additional observations from a re-analysis of the deposited data

Results flagged for a closer look

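Comparing the hairpins with each other, 2 of the 10 members differed. BMF was higher with sh78 by 0.93 on the log2 scale (edgeR adjusted p 0.0198), higher in all 3 same-numbered pairs (0.97, 0.56 and 1.15). BAK1 differed by −0.35 on the same scale (edgeR adjusted p 0.0297), lower in all 3 pairs (−0.32, −0.46 and −0.30). Each call was lost when some of the single libraries were left out. Groups of 3 are too small for a rule on single outlying samples.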

How the results depend on the processing

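Of the values of single members under an alternative, 465 kept their direction and side of the threshold, 18 gained a call and 20 lost one, and the 7 that changed sign were all uncalled. The number of genes called was 3467, 3388 and 3117 (sh76, sh78, sh78 against sh76) with the replicate block and 1149, 1212 and 1125 without the low-count filter, against 610, 750 and 629 as reported. Leaving out 1 library gave 237 to 655, 418 to 810 and 273 to 780. The number of members called was 2, 8 and 5 with the replicate block, against 1, 2 and 2. DESeq2 and the unfiltered fit each called 4 with sh78 and 3 between the hairpins. Leaving out 1 library gave 0 to 1, 1 to 3 and 0 to 2 members. It changed the sign of BIK with sh78 (range −0.29 to 0.10, positive without scramble replicate 1), BCL2 with sh76 (−0.52 to 0.072, positive without scramble replicate 2 or sh76 replicate 3), BCL2 with sh78 (−0.12 to 0.48, negative without sh78 replicate 2) and, between the hairpins, BID (−0.058 to 0.0237, positive without sh76 replicate 3 or sh78 replicate 1) and BCL2L1 (−0.0807 to 0.0244, positive without sh78 replicate 3). The cause of these shifts was not tested. Scaling by DESeq2 size factors or by library totals changed no member's call. BIK had 15 to 25 counts per library, the fewest among the members.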
